A study of Homo sapiens with 6 samples.

Results

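The matrix metalloproteinase system was described here through 10 genes: the matrix metalloproteinases MMP1, MMP2, MMP3, MMP10 and MMP14, the tissue inhibitors TIMP1, TIMP2 and TIMP3, and the membrane proteases ADAM10 and ADAM17. The members were the rows of the authors' table that carry one of these gene names, and 8 of the 10 names were found among its 20745 genes. MMP3 and MMP10 had no row under their names or their identifiers (ENSG00000149968 and ENSG00000166670). The study sequenced RNA from AB 8/13 cells, a human podocyte line in which a temperature-sensitive SV40 T antigen drives division at 33 °C and which was differentiated at 37 °C. In all, 3 vehicle cultures were set beside 3 cultures given 1 µM levamisole for 24 h, each group from different passages of the same line. The labels place both groups in medium without serum, whereas the methods describe the vehicle cultures as kept in complete medium. The table gives for each gene a base mean, the authors' mean of normalized read counts over the libraries of their fit. Which libraries the mean covers is not given in the sources used here, and libraries beyond these 6 cultures may be averaged in. The mean does not separate vehicle from levamisole, so no level below belongs to either group, no spread between cultures can be given, and the difference between the groups was not analysed here.

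Matrix metalloproteinases are zinc-dependent enzymes that are made as inactive precursors and cut collagens, laminins and other matrix proteins once the propeptide is removed. TIMPs block their active site, and the ADAM proteases cut the extracellular part off membrane proteins, a step known as shedding. In the glomerulus these enzymes act on the basement membrane to which podocytes attach and on receptors and adhesion proteins of the podocyte surface.

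The members fell into a high, an intermediate and a near-absent set. TIMP1, MMP14 and TIMP2 were among the most abundant transcripts of the table, ADAM10, ADAM17 and MMP2 lay at moderate levels, and TIMP3 and MMP1 had less than 1 normalized read per library on average. Of the 10 members, 8 had a row and 6 reached a base mean of 5, and the same 6 reached a base mean of 50. The methods name a cutoff of 5 reads in each sample, which is a stricter measure than a mean of 5. Over the whole table, 64.3% of genes reached a base mean of 5, and the median base mean was 21.8. Together the 8 members with a row made up 0.157% of the summed base means.

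**Figure D1:**
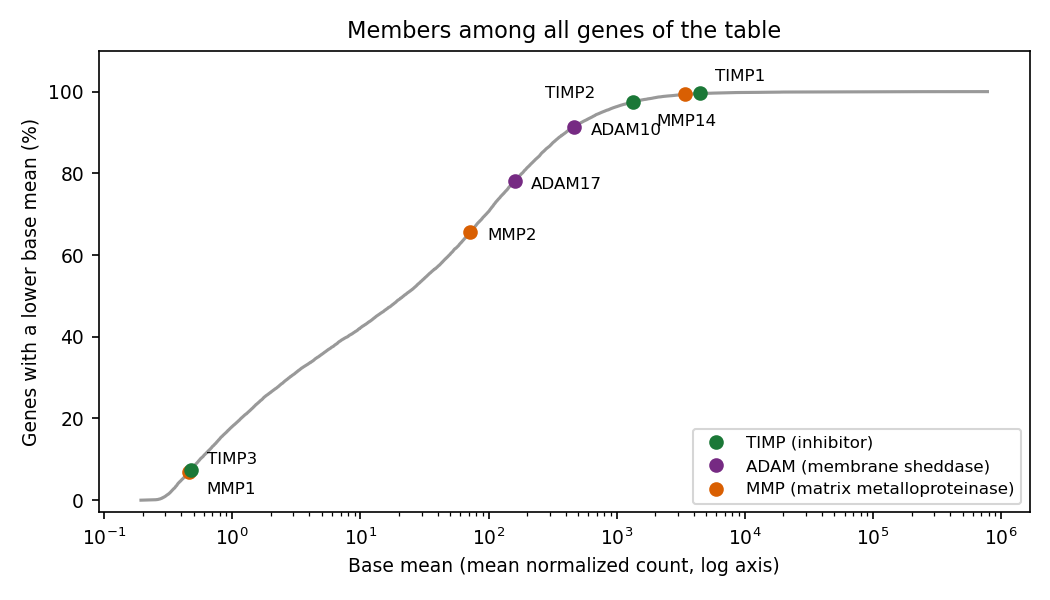
Base mean of each gene (x axis, log scale, mean normalized count) against the percentage of the 20745 genes with a lower base mean (y axis). The grey line is all genes and the points are the 8 members with a row, coloured by family. TIMP1, MMP14 and TIMP2 sit above 97% of the genes, and MMP1 and TIMP3 sit near the bottom of the curve at 7.01% and 7.40%.

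TIMP1 (ENSG00000102265) encodes a secreted inhibitor of most soluble matrix metalloproteinases. On GRCh38, the build of all positions given here, it spans bases 47582408 to 47586789 of the plus strand of chromosome X. Its base mean was 4504 in the authors' table, and it was the gene of rank 96 by base mean. TIMP2 (ENSG00000035862, chromosome 17, 78852977 to 78925387, minus strand) encodes the inhibitor that also binds MMP14 at the cell surface. Its base mean was 1332, and 97.5% of the genes had a lower one. TIMP3 (ENSG00000100234, chromosome 22, 32801705 to 32863041, plus strand) encodes the inhibitor that stays bound to the matrix and can block ADAM17. Its base mean was 0.475, and 1536 genes of the table had a lower base mean. TIMP1 and TIMP2 were thus among the most read genes. The matrix-bound TIMP3 was close to the lowest base mean of the table, which was 0.194. TIMP4, the remaining gene of the family and not a member, also had a low base mean, 0.489.

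MMP14 (ENSG00000157227) encodes a membrane-anchored collagenase that also removes the propeptide of MMP2, with TIMP2 as the bridge between the enzymes. It lies on chromosome 14 from 22836560 to 22849041, on the plus strand. The base mean of MMP14 was 3420, the highest of the 13 listed matrix metalloproteinases with a row, and its rank in the table was 145. MMP2 (ENSG00000087245, chromosome 16, 55389700 to 55506691, plus strand) encodes gelatinase A, which cuts type IV collagen. Its base mean was 72.1, and 65.7% of the genes had a lower one. The activator and the bridging inhibitor of this trio were therefore both read far more often than the gelatinase itself. MMP1 (ENSG00000196611, chromosome 11, 102789401 to 102798160, minus strand) encodes the interstitial collagenase, which cuts fibrillar collagen. Its base mean was 0.463, and 1454 genes had a lower one. Among protein coding genes alone, 2.61% had a lower base mean than MMP1 and 2.75% a lower one than TIMP3.

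Reads of a CEL-seq library start near the poly(A) tail, so the base mean does not grow with transcript length in the way of full-length libraries. For such reads, division by length lowers the values of long transcripts, so the base mean without length scaling is the main measure here. Levels per kb of the longest annotated transcript are given only as an alternative. On that scale, base mean per kb, TIMP1 stood at 4113, MMP14 at 888 and TIMP2 at 365 (215 per kb of exon union). ADAM10 followed at 41.7, ADAM17 at 24.3 and MMP2 at 20.5 base mean per kb. MMP1 stood at 0.235 and TIMP3 at 0.103 base mean per kb. Without length scaling, the base mean of TIMP1 was 1.32 times that of MMP14. Per kb it was 4.63 times that of MMP14, with lengths of 1.095 kb for TIMP1 and 3.852 kb for MMP14. MMP14 was 47.5 times as high as MMP2 by base mean and 43.3 times as high per kb. TIMP2 was 18.5 times as high as MMP2 by base mean, 17.8 times per kb and 14.0 times per kb of exon union. The order of the first 4 genes was the same under each length that was tried, while ADAM17 and MMP2 changed places when the union of all annotated exons was the length. MMP1 and TIMP3 also changed places between the base mean and the base mean per kb. With a single mean per gene it cannot be asked whether neighbours in this order differ beyond the spread between cultures.

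**Figure D2:**
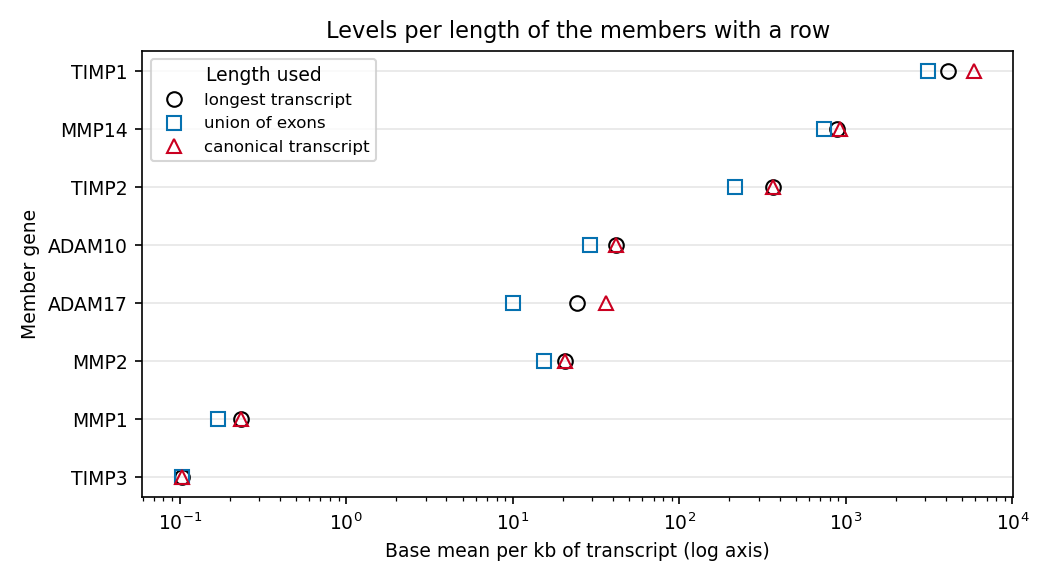
Base mean per kb (x axis, log scale) of the 8 members with a row (y axis), with the length taken as the longest transcript (circles), the union of exons (squares) or the canonical transcript (triangles). TIMP1, MMP14, TIMP2 and ADAM10 keep their order under all 3 lengths, and ADAM17 is spread from 9.99 to 36.3.

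ADAM10 (ENSG00000137845) and ADAM17 (ENSG00000151694) encode the main sheddases of the cell surface, ADAM10 for Notch receptors and cadherins and ADAM17 for tumour necrosis factor and ligands of the EGF receptor. ADAM10 lies on chromosome 15 from 58588809 to 58749791 and ADAM17 on chromosome 2 from 9488486 to 9556732, both on the minus strand. The base mean of ADAM10 was 465, with 91.4% of the genes lower. The base mean of ADAM17 was 159, with 78.2% of the genes lower. Without length scaling the base mean of ADAM10 was 2.91 times that of ADAM17. Per kb of the longest transcript ADAM10 was 1.72 times as high as ADAM17. This ratio was 2.91 per kb of exon union and 1.15 per kb of canonical transcript. The last 500 exonic bases of ADAM17 are covered in GENCODE 44 by exons of IAH1 on the opposite strand. The methods name default settings of the counting tool, which use strand, so reads of IAH1 would not be counted for ADAM17 under them.

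Transcripts of the proteins that carry both ADAMs to the surface were read as well. All 9 listed partners, the iRhoms with an adaptor and the TspanC8 tetraspanins, reached a base mean of 5. Of all genes with a row, 64.3% did. RHBDF1, which encodes iRhom1 and helps ADAM17 mature, had the highest base mean of the list at 1032. Its relative RHBDF2, named after its value was seen, had a base mean of 47.1. RHBDF1 was 21.9 times as high as RHBDF2 by base mean and 26.4 times as high per kb. Among the tetraspanins that guide ADAM10, TSPAN14 had a base mean of 605 and TSPAN5 one of 478. Of 18 listed substrates of the sheddases, 16 reached a base mean of 5, against the same 64.3% of all genes. The highest were APP, the amyloid precursor protein, at a base mean of 3098, AXL, a receptor tyrosine kinase, at 2301, and CDH2, which encodes N-cadherin, at 1805.

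MMP1, MMP3 and MMP10 belong to the matrix metalloproteinase cluster of chromosome 11. Its 9 genes lie side by side on the minus strand within 435 kb, from 102520508 to 102955732, with no other protein coding gene inside in GENCODE 44. They encode collagenases (MMP1, MMP8 and MMP13), stromelysins (MMP3 and MMP10), matrilysin (MMP7), the macrophage elastase (MMP12), the enamel enzyme MMP20, and MMP27. Only 3 of the 9 had a row in the table, and 1 of them, MMP7, reached a base mean of 5. MMP7 had a base mean of 44.7, MMP1 one of 0.463 and MMP8 one of 0.281. MMP20, MMP27, MMP10, MMP3, MMP12 and MMP13 had no row. MMP10, MMP1 and MMP3, the members of the cluster, are direct neighbours, with 8.77 kb between MMP10 and MMP1 and 37.6 kb between MMP1 and MMP3.

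**Figure D3:**
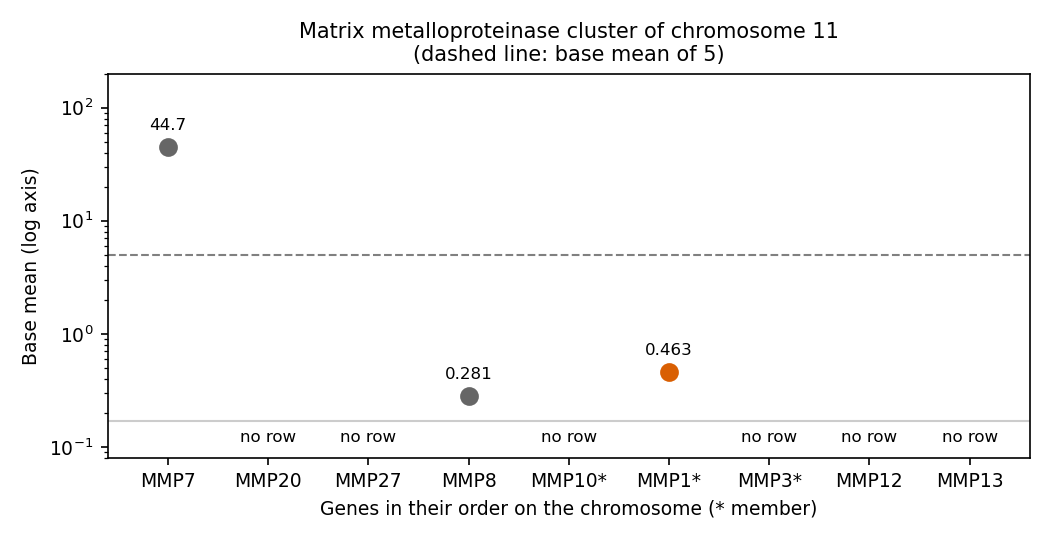
Base mean (y axis, log scale) of the 9 matrix metalloproteinase genes of chromosome 11 in their order along the chromosome (x axis, not to distance). Members are in orange and marked with an asterisk, and genes without a row are written as such below the grey line. MMP7 at 44.7 is the single gene above the dashed line at a base mean of 5, and 6 of the 9 have no row.

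The 250 bases before the RefSeq start of 5 genes are shown because these genes span the range of levels: a highly read protease and inhibitor, a near-absent inhibitor, and 2 genes of the cluster of which 1 was read. They are given 5′ to 3′ on the strand of the gene, from GRCh38.p14, at chr14:22836335-22836584 for MMP14, chrX:47582186-47582435 for TIMP1, chr22:32801455-32801704 for TIMP3, chr11:102780629-102780878 for MMP10 and chr11:102530748-102530997 for MMP7. Capitals mark TGAGTCA (the AP-1 motif), TATAAA (the TATA motif) and GGGCGG (the GC box), each searched on both strands, and none of the marked matches overlaps another.
MMP14: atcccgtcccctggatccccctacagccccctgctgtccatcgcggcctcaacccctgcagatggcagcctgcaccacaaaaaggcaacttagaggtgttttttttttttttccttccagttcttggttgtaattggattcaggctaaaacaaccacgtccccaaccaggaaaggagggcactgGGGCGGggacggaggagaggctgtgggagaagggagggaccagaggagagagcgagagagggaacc
TIMP1: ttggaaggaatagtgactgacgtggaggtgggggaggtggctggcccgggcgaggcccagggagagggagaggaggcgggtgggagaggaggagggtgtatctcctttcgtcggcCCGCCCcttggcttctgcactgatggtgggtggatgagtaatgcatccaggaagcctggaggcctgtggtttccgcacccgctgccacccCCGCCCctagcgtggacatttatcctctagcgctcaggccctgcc
TIMP3: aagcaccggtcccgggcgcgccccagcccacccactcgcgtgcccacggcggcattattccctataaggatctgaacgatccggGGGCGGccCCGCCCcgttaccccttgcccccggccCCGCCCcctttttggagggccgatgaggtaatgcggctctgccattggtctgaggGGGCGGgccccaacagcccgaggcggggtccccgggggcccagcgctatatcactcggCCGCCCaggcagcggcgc
MMP10: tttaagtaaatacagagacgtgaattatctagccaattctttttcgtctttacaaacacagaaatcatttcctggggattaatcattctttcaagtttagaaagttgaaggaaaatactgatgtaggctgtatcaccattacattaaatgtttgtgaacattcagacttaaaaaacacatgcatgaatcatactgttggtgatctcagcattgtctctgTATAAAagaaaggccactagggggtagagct
MMP7: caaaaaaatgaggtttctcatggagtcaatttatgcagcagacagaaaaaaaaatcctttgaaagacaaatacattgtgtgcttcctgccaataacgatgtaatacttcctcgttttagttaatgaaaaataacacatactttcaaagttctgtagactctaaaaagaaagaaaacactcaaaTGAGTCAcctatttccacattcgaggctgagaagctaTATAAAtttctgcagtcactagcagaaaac

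MMP7 and MMP10 both hold TATAAA, 30 and 31 bases before the start, and 10.7% of the 35116 RefSeq promoters of this length hold it on either strand. MMP7 also holds TGAGTCA 67 bases before the start, a motif found in 4.20% of promoters. The 34.4% G and C of MMP10 and the 33.6% of MMP7 compare with a median of 58% over all promoters. MMP14 holds 1 GC box, TIMP1 holds 2 and TIMP3 holds 5, and 42.6% of promoters hold at least 1. This window holds 26 CG dinucleotides in TIMP3, 25 in ADAM10, 31 in ADAM17, 12 in TIMP1 and 7 in MMP14. The base means of ADAM10 and ADAM17 were 465 and 159. The 5 printed windows are descriptions of single genes. Promoters were matched for 6 of the 10 members (MMP10, MMP14, TIMP1, TIMP3, ADAM10 and ADAM17), too few for a summary over the members, and MMP1, MMP2, MMP3 and TIMP2 were not matched.

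Across the 4 families to which the members belong or are closest, 45 of 66 listed genes had a row and 28 reached a base mean of 5. Of all genes with a row, 64.3% reached it. That share is over genes with a row, so the count to set beside it is 28 of 45, not 28 of 66. Of 23 matrix metalloproteinases, 13 had a row and 7 reached it. All 4 TIMPs had a row and 2 reached it. Of 20 ADAMs, 14 had a row and 10 reached it. Of 19 ADAMTS proteases, the secreted relatives of the ADAMs, 14 had a row and 9 reached it. After MMP14, the matrix metalloproteinase with the next base mean was MMP24, a membrane-anchored enzyme, at 180. The last 500 exonic bases of MMP24 are covered by MMP24OS on the opposite strand. ADAM9 and ADAM12, membrane proteases of the same family, had base means of 873 and 619, both above ADAM10. Without length scaling the base mean of ADAM9 was 1.88 times that of ADAM10. Per kb of the longest transcript this ratio was 2.96, with 1.70 per kb of exon union and 5.10 per kb of canonical transcript. ADAM12 stood at 78.0 base mean per kb of the longest transcript. ADAMTS5, an aggrecan-cleaving protease, had a base mean of 2724, ADAMTS1 one of 617 and ADAMTS12 one of 455. No exon of a further gene lay on the same strand over the last 500 exonic bases of any of the 66 genes in GENCODE 44.

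**Figure D4:**
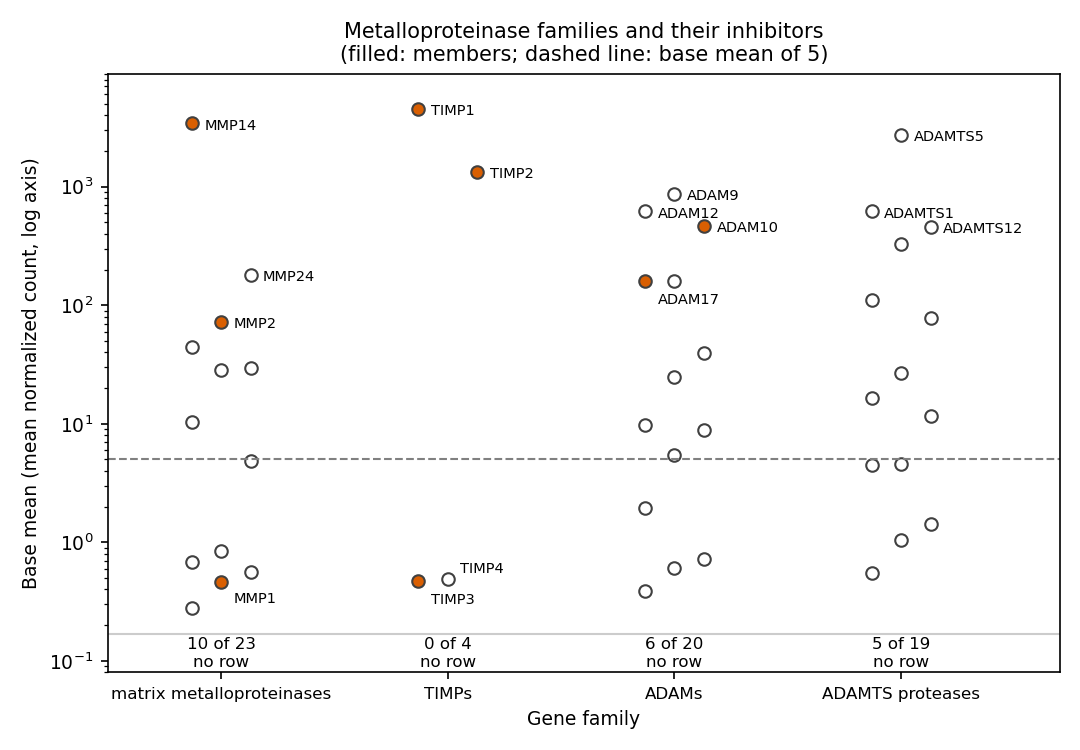
Base mean (y axis, log scale) of the genes of 4 families (x axis), with members filled and the dashed line at a base mean of 5. The count under each family is of listed genes without a row. MMP14, TIMP1 and TIMP2 stand at the top of their families, ADAM10 is the third among the ADAMs, and 10 of 23 matrix metalloproteinases have no row.

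Of 10 listed activators and regulators of these proteases, 8 reached a base mean of 5, against 64.3% of all genes with a row. CD44, a hyaluronan receptor that can bind MMP14, had a base mean of 2272. BSG, which encodes the MMP inducer basigin, had one of 495, and PCSK7, a proprotein convertase, one of 440. The last 500 exonic bases of PCSK7 are covered by TAGLN on the opposite strand.

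The labelled cell type was checked against its markers. Of 13 podocyte markers, 11 had a row and 8 reached a base mean of 5, against 64.3% of all genes with a row. The 8 were led by ACTN4 at 14320, CD2AP at 929 and KIRREL1 at 253, genes that other cells use too. NPHS1, which encodes the slit diaphragm protein nephrin and defines the podocyte, had no row. A base mean of 5 was reached by 0 of 5 endothelial and 0 of 4 leukocyte markers. Of 5 proximal tubule markers 1 reached it (AQP1, at 243). Of 7 mesangial and fibroblast markers 3 reached it (COL1A1 at 2732, LUM at 519 and DCN at 36.9). In the same list PDGFRB had a base mean of 4.14 and COL1A2 one of 1.24, and PDGFRA and ITGA8 had no row. The part of other cell types in the levels of the members was not tested. The 22 mitochondrially encoded genes took 34.8% of the summed base means.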

How the data were processed

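RNA was sequenced from 3 vehicle and 3 levamisole cultures of AB 8/13 podocytes by an adapted CEL-seq protocol. According to the submitters' processing notes and the methods, the authors trimmed reads with Trim Galore 0.4.5, mapped them to GRCh38 with STAR 2.7.5a, counted them per gene with HTSeq 0.11.0 at default settings on Ensembl annotation 95, and fitted DESeq2 1.22.0. The methods also describe a BWA MEM alignment with scaling by total reads. Which libraries entered the deposited fit is not given in the sources used here.

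The base mean deposited by the authors is a signal: read counts divided by size factors and averaged over the libraries of their fit. It is not scaled to gene length. The deposited fold changes, standard errors, Wald statistics, p-values and adjusted p-values are the authors' own comparison of levamisole with vehicle and were not used. The base mean pools the libraries, so depth per library, replicate spread and a treatment test could not be had, and edgeR was not run.

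Members were matched by gene name, and by identifier where no name matched. Shares of summed base means, percentiles and base means per kb of the longest annotated transcript were computed with Python 3.11.15, NumPy 2.4.6 and pandas 2.3.3, and figures were drawn with matplotlib 3.10.9. The helper functions were tested on simulated data. Positions came from GENCODE 44, also on GRCh38, which held 20599 of the 20745 identifiers. The last 500 exonic bases of each canonical transcript were checked for overlapping genes. Promoters were taken from RefSeq (GRCh38.p14).

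The members and gene lists were chosen with earlier results of these data known. The result for 1 listed marker is not reported here. The genes named are all members, the 3 highest of each list, and the chromosome 11 cluster, with RHBDF2 named besides after its value was seen and NPHS1 as a defining marker. The other mesangial and fibroblast markers were also named after their values were seen. Alternatives were other denominators, gene lengths, reference sets and base mean minimums.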

Additional observations from a re-analysis of the deposited data

How the results depend on the processing

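The summed level of the 8 members with a row, 0.157% of all base means, became 0.241% without the mitochondrially encoded genes and 0.239% without the 10 most abundant genes, since both leave a smaller denominator. The 28 family genes at a base mean of 5 became 16 at a base mean of 50, while minimums of 1 and 10 gave 34 and 25. The 6 members at a base mean of 5 were 6 at minimums of 1, 10 and 50. The median percentile of these 6, which leaves out MMP1 and TIMP3, was 94.4 among all genes. It was 91.3 among genes that reach a base mean of 5 and 92.1 among protein coding genes. The value among all genes is partly set by the minimum, since all genes include those under it. A value was counted as moved when it changed by more than 1.5 times, since no spread between cultures was at hand, and 34 of 41 alternative values stayed within this. The other 7 were the 3 values above that moved, TIMP2 and ADAM17 per kb of exon union (215 and 9.99), and the percentiles of MMP1 and TIMP3 among protein coding genes (2.61 and 2.75). Some of the 34 could not have moved, so this count says little about robustness. The canonical and longest transcripts have equal lengths for MMP1, MMP2, TIMP2, TIMP3 and ADAM10. For TIMP3 the exon union has that length too. No family gene was left out for overlap on the same strand, so the 28 stayed. Few genes rank above TIMP1, MMP14 and TIMP2, so a smaller reference set could hardly shift their percentiles. The canonical transcript as length was chosen after seeing the data. No paired analysis was possible because the base mean has no values per culture, and for the same reason edgeR, DESeq2, no filter on low counts and left-out replicates were not run. A single mean without depth per library limits what can be said of TIMP3, MMP1 and the genes without a row: their order is not known at this depth.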
